A study of Mus musculus with 15 samples.

Results

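The 8 genes Wt1, Osr1, Pax8, Gata3, Upk3b, Tcf21, Nr5a1 and Ret were followed across 11 spatial transcript libraries of mouse embryo sections. They were named as a list of urogenital and mesothelial genes, out of 30534 gene columns in the joined tables, and were not picked by a threshold on these values. The choice was made with earlier results of these data known. In deterministic barcoding in tissue, crossed microfluidic channels print a grid of barcodes onto a frozen section, so that each crossing, called a pixel, captures the RNA of the small patch below it. A pixel can hold several cells or parts of cells. The sections came from embryonic day 10 (E10) at pixel widths of 10 µm (2 libraries), 25 µm (1 library) and 50 µm (3 libraries), from E11 at 10 µm (2) and 25 µm (2), and from E12 at 50 µm (1). The labels give stage and pixel width. Strain, genotype, embryo and the body region under the grid are not given in the sources used here, and nothing says whether replicate sections came from separate embryos, so p-values measure the spread between sections, which may be technical.

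Most of these genes are known from the intermediate mesoderm and the lining of the body cavity. Wt1 (a zinc finger factor) and Osr1 act early in kidney, gonad and mesothelium. Pax8, Gata3 and the receptor tyrosine kinase Ret act in the nephric duct, which sends out the ureteric bud, while Nr5a1 (steroidogenic factor 1) builds the gonad and the adrenal cortex. Upk3b is a marker of mesothelium and epicardium, and Tcf21 marks mesenchyme of epicardium, lung and kidney. Several of them also have known neural roles: Pax8 in spinal and hindbrain interneurons, Gata3 in V2b interneurons and sympathetic neurons, Ret in motor, sensory, sympathetic and enteric neurons.

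The annotation (GENCODE M21, build GRCm38) places Wt1 on chromosome 2 (105126529 to 105173616, plus strand), with Pax8, Gata3 and Nr5a1 also on chromosome 2. Pax8 lies at 24420560 to 24475599, Gata3 at 9857078 to 9890034 and Nr5a1 at 38692656 to 38714542, all on the minus strand. Osr1 is on chromosome 12 (9570116 to 9581500, plus), Upk3b on chromosome 5 (136038496 to 136046487, plus), Tcf21 on chromosome 10 (22817281 to 22820174, minus) and Ret on chromosome 6 (118151745 to 118197718, minus). All 8 are protein-coding. Whether the counting used strand is not given, so reads of overlapping genes cannot be told apart; in the tables these partners held few counts, with 16 for 4930412O13Rik and 25 for 9230102O04Rik beside 1810 for Gata3.

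RefSeq promoter windows (250 bases before to 50 after the start, build GRCm38.p6) matched 4 of the 8 genes, Pax8, Gata3, Upk3b and Tcf21. The windows of Upk3b (chr5:136038246-136038545, plus strand) and Tcf21 (chr10:22820094-22820393, minus strand) are shown as examples. Both genes shared pixels with Wt1 at E12, as did Pax8 (8 pixels) and Gata3 (11 pixels). Capitals mark GATAA on either strand, a core of GATA factor motifs.
Upk3b: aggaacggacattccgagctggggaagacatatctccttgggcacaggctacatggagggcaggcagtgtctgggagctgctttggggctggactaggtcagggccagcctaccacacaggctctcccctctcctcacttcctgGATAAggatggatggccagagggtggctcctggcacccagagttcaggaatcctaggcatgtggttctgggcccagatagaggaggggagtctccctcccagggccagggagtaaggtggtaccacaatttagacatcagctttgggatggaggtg
Tcf21: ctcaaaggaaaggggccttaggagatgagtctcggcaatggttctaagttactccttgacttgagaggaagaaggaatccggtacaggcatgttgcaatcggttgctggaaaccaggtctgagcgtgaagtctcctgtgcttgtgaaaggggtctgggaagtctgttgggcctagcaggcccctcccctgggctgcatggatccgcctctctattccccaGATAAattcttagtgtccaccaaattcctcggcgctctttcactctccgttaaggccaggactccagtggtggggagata
Each window held 1 match, as did that of Pax8, while that of Gata3 held 0. Of 32544 promoter windows of 300 bases, 25.3% held GATAA on either strand, so a match is common and is only a description of the letters.

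Pixels were taken as tissue when their total count reached 0.1 times the total at the 95th percentile of their library, which left 829 to 2271 pixels and 1563489 to 11998765 counts a library. Levels are CPM, the counts of a gene for every 1000000 counts over all tissue pixels. The libraries differed in what tissue they held, which bears on every level below. The 2 E11 25 µm sections shared most of their outline: 76.1% of their pooled tissue positions were tissue in both, and at the 1386 shared positions the summed heart muscle level correlated at r = 0.88 (positions of 2 sections, not independent points). Their counts differed beyond sampling (a chi-square of 51.9 a gene over 14583 genes), so they are separate libraries of closely matched tissue, and agreement between them is not agreement between different body regions. The 2 E11 10 µm sections held different tissue. Replicate 1 had a summed forebrain and eye level of 259 CPM with heart muscle at 67.7 CPM and liver at 59.1 CPM, whereas replicate 2 had 35.7, 5119 and 3817 CPM. Posterior Hox genes, which mark the rear of the trunk, summed to 349.8 and 408 CPM at E11 25 µm and 269 CPM at E12, against 17.5 to 108 CPM at E10 50 µm and at most 15.3 CPM elsewhere. Body region and stage cannot be told apart in these groups. Some tables held no column for a gene, which was read as 0: Wt1, Upk3b and Tcf21 in E10 10 µm replicate 2, Nr5a1 in E10 50 µm replicate 3 and Tcf21 in E11 10 µm replicate 1. The limit that a count of 0 allows (3 counts) was 0.566, 0.282 and 1.17 CPM in these 3 libraries and 1.92 CPM at E10 25 µm.

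The level of Wt1 was 2.08 and 0 CPM in the E10 10 µm libraries, 1.28 CPM at E10 25 µm, and 2.29, 4.29 and 3.01 CPM at E10 50 µm. At E11 it was 1.17 and 103 CPM at 10 µm and 21.5 and 28.7 CPM at 25 µm, and at E12 it was 44.3 CPM. All E10 libraries therefore lay below the E11 25 µm and E12 libraries, and the 2 E11 10 µm sections lay at the low and the high end. The 95% Poisson intervals of the highest levels, 91.5 to 116 CPM in E11 10 µm replicate 2 and 39.3 to 49.7 CPM at E12, did not overlap (these intervals cover counting error only). Wt1 counts lay in 13.5% of tissue pixels at E12 and in 2.79% to 3.98% of those at E10 50 µm. In bulk sums such as these, fewer cells of a type and less RNA per cell cannot be told apart.

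Osr1, a factor of the early intermediate mesoderm that is also present in lung and gut mesenchyme, was spread more evenly. It was 12.3 and 7.17 CPM at E10 10 µm, 1.92 CPM at E10 25 µm, 8.20, 7.39 and 9.87 CPM at E10 50 µm, 12.8 and 14.2 CPM at E11 10 µm, 8.68 and 8.60 CPM at E11 25 µm, and 60.9 CPM at E12. The E12 section stood apart from all others, with an interval of 55.1 to 67.2 CPM, and held Osr1 in 267 of its pixels (17.4%).

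Upk3b and Tcf21, like Wt1, were higher at E11 25 µm and E12 than in every E10 library. Upk3b was 5.17 and 0 CPM at E10 10 µm, 2.56 CPM at E10 25 µm, 4.14, 3.69 and 1.88 CPM at E10 50 µm, 0 and 40.8 CPM at E11 10 µm, 11.8 and 9.38 CPM at E11 25 µm, and 17.1 CPM at E12. Tcf21 was at most 1.41 CPM in every E10 library, 0 and 8.02 CPM at E11 10 µm, 3.16 and 6.90 CPM at E11 25 µm, and 9.08 CPM at E12. E11 10 µm replicate 2 was the highest library for Upk3b, while for Tcf21 its interval (5.03 to 12.1 CPM) overlapped that of E12 (6.91 to 11.7 CPM).

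Nr5a1 had few counts everywhere. Its highest levels were in E11 10 µm replicate 2 with 3.28 CPM from 9 counts, and E12 with 2.31 CPM from 15 counts in 15 pixels. The other libraries had 0 to 0.75 CPM, and the E11 25 µm sections held 2 counts and 1 count.

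The 3 genes shared with the nervous system did not follow Wt1. Gata3 was 41.8 and 12.3 CPM at E10 10 µm, 33.3 CPM at E10 25 µm, 25.6, 13.5 and 40.5 CPM at E10 50 µm, 34.2 and 11.3 CPM at E11 10 µm, 9.28 and 8.99 CPM at E11 25 µm, and 18.9 CPM at E12, so its lowest libraries were those at E11 25 µm. Pax8 was 6.52, 3.81 and 9.03 CPM at E10 50 µm, 5.38 CPM at E12 and 4.74 CPM in E11 10 µm replicate 2, and between 0 and 0.987 CPM in the other 6 libraries. Ret was 8.28, 9.06 and 4.80 CPM at E10 50 µm, 10.2 CPM at E10 25 µm, 6.51 and 5.86 CPM at E11 25 µm, 5.54 CPM at E12, and 0.755 to 4.08 CPM in the 4 libraries at 10 µm.

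**Figure D1:**
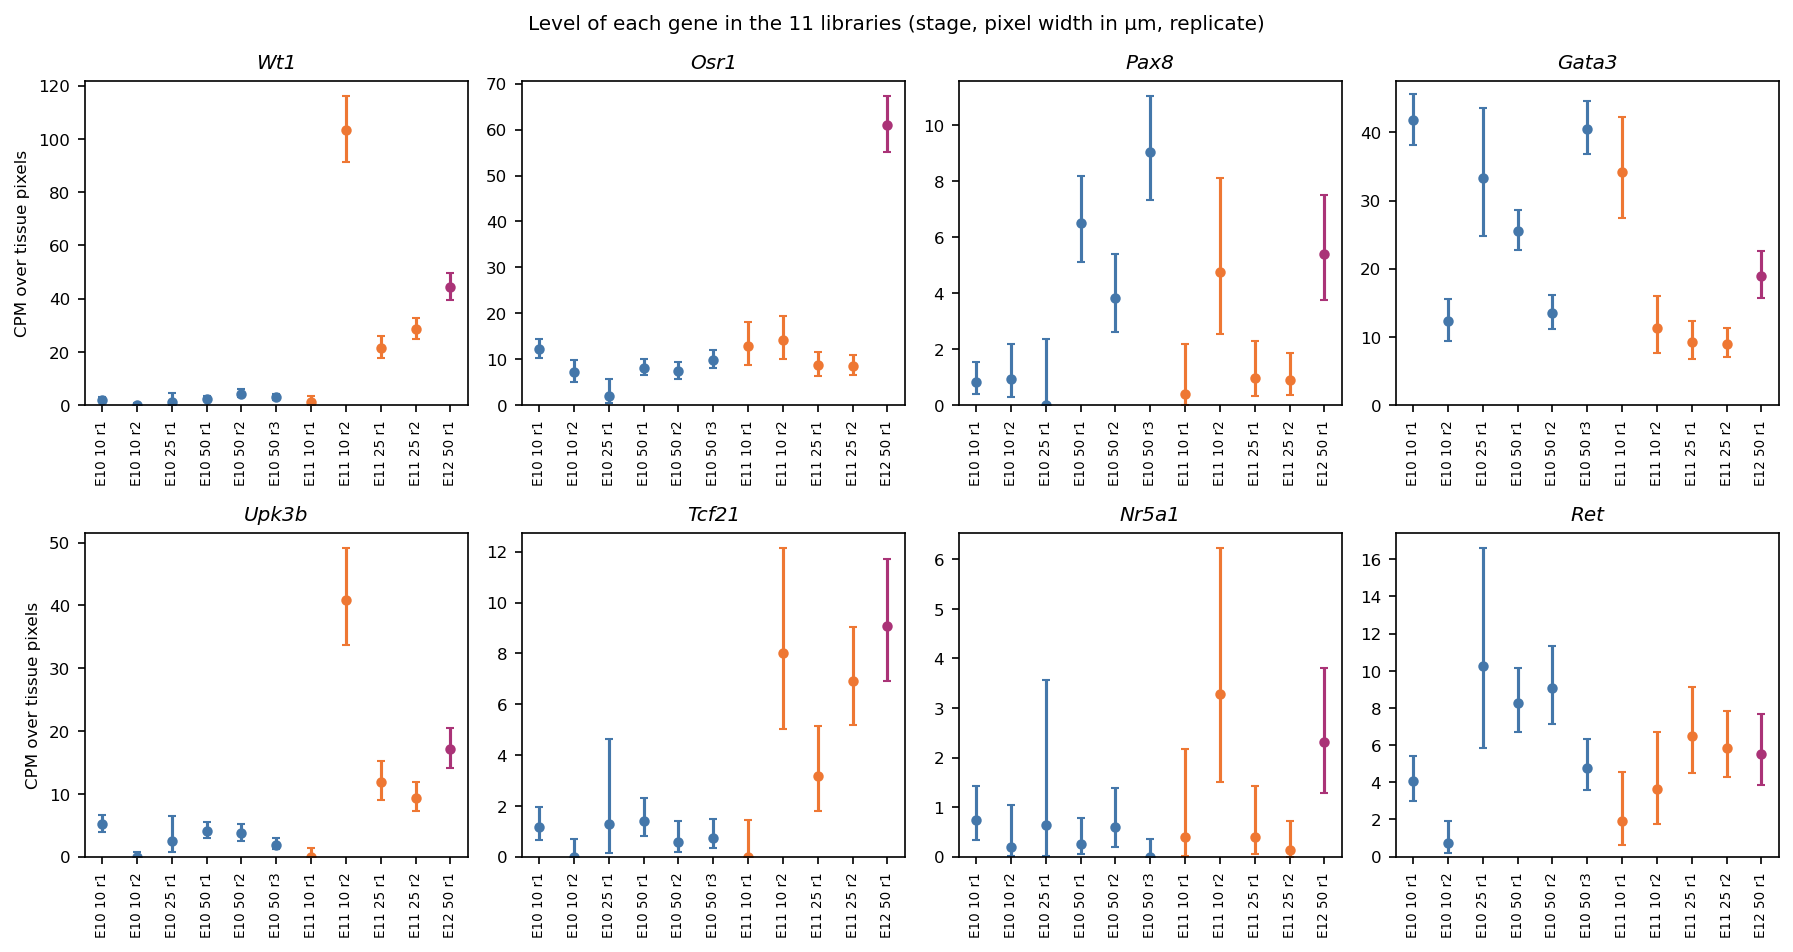
CPM over tissue pixels (vertical axis, linear, its own range for each gene) of the 8 genes in the 11 libraries (horizontal axis: stage, pixel width in µm, replicate); bars are 95% Poisson intervals and colours mark stage. Wt1, Upk3b and Tcf21 are high in E11 10 µm replicate 2, and Osr1 reaches 60.9 CPM at E12; a gene with no column in a table is drawn at 0.

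Differences between groups were tested with edgeR's quasi-likelihood test over all 18233 genes that passed the filter on low counts, and all 8 genes passed. From E10 to E12 at 50 µm, Osr1 rose by a log2 fold change of 2.80 (SE 0.36, adjusted p = 0.00200, Benjamini-Hochberg), from a mean of 8.49 ± 1.27 CPM (SD, n = 3) to 60.9 CPM in the single E12 section. It was the only one of the 8 genes called, where 2.14% of all genes were called. The other mesodermal genes had large differences that did not pass: Wt1 3.75 (SE 1.56, adjusted p = 0.354), Tcf21 3.23 (SE 1.18, adjusted p = 0.231), Nr5a1 2.94 (SE 1.22, adjusted p = 0.285) and Upk3b 2.35 (SE 1.76, adjusted p = 0.635). The median log2 fold change of the 8 genes was 2.58, beside -0.04 over all genes tested. The E12 group is 1 library, whose spread is taken from the other groups. Without E11 10 µm replicate 1, or without replicate 2, edgeR called 3 of the 8 genes (Wt1, Osr1 and Tcf21), with adjusted p = 0.00383 and 0.00527 for Wt1. The share of all genes called was higher in these fits too, at 5.34% and 5.27%.

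Of the 8 genes 0 were called by edgeR in the other 4 comparisons. The shares of all genes called are at an adjusted p under 0.05. The share of all genes at an unadjusted p under 0.05 was not counted, so the unadjusted counts cannot be set against these shares. Between E11 25 µm and E11 10 µm, 0 had an unadjusted p under 0.05, DESeq2 called 0, and 2.07% of all genes were called. Between E11 25 µm and the single E10 25 µm library, Osr1 had a log2 fold change of 2.37 (SE 0.68, adjusted p = 0.162 with edgeR). It was the 1 gene under 0.05 unadjusted, DESeq2 called 0, and 0.455% of all genes were called. Between E11 10 µm and E10 10 µm, Wt1 had a log2 fold change of 5.38 (SE 1.83, adjusted p = 0.183 with edgeR), 1 gene was under 0.05 unadjusted, and 3.33% of all genes were called. DESeq2 called Wt1 there (5.71, adjusted p = 0.0412), and that difference was made by 1 section: with edgeR it was -0.14 without E11 10 µm replicate 2 and 6.34 without replicate 1. Between 10 µm and 50 µm sections of E10, Pax8 had a log2 fold change of -2.82 (SE 0.76, adjusted p = 0.139 with edgeR) and Ret -1.51 (SE 0.61, adjusted p = 0.368). Both were under 0.05 unadjusted, and 0.11% of all genes were called at an adjusted p under 0.05. DESeq2 called Pax8 (adjusted p = 0.0453), as did edgeR without either E11 10 µm library (adjusted p = 0.0387 and 0.0426). The change from E10 to E11 was also compared between 25 µm and 10 µm sections, a test added after seeing the data: 0 of the 8 genes differed after adjustment with edgeR (Osr1 by 1.92 on the log2 scale, unadjusted p = 0.0293, adjusted p = 0.540), where 25 of 18233 genes did.

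Lists of genes that work beside these 8 gave the following calls with edgeR. Calls are at an adjusted p under 0.05, and unadjusted counts are given without a share over all genes, which was not counted. Of 10 genes of the nephron progenitor mesenchyme, 3 rose from E10 to E12 at 50 µm, and all 3 were Hox genes of the rear trunk: Hoxa11, Hoxc11 and Hoxd11, the last at 20.9 CPM in E12 and 0 in all 3 E10 50 µm sections. In the same comparison 2 of 7 germ cell genes rose, Dppa3 (log2 fold change 7.13, SE 1.31, adjusted p = 0.0192) and Ifitm3 (2.38, SE 0.49, adjusted p = 0.0283), both known from primordial germ cells. Of 10 nephric duct and ureteric bud genes 0 were called by edgeR (5 at an unadjusted p under 0.05, median log2 fold change 1.16), of 9 mesothelium and epicardium genes tested 0 were called (1 unadjusted, median 1.23), and of 7 gonad and adrenal genes tested 0 were called (2 unadjusted, median -0.17), beside a median of -0.04 over all genes. Of the posterior Hox list, 10 of 11 genes tested rose there too. The ligand gene Wnt4, active in kidney and gonad and also in the neural tube, was higher at E11 25 µm than at E10 25 µm (a mean of 149 against 12.8 CPM in 1 library, adjusted p = 0.0217). It was also higher at E11 10 µm than at E10 10 µm (45.8 against 6.82 CPM, adjusted p = 0.00476). Within E11, Wnt4 was called as well, higher at 25 µm (149 CPM) than at 10 µm (45.8 CPM), so its level also differed between groups of the same stage. At E10, Lhx1 (a partner of Pax8 in duct and interneurons) and Slc18a3 (the vesicular acetylcholine transporter of motor neurons) were lower at 10 µm than at 50 µm, with adjusted p of 0.0480 and 0.0339.

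Where the counts lay was described pixel by pixel, within each library and with no test. For each pair of genes, the number of pixels holding both was set beside the number expected if the 2 genes were laid out independently given each pixel's total count. Among the 28 pairs, 11 had an expectation of at least 1 pixel in both E11 25 µm sections, and 3 of these exceeded it in both: Wt1 with Upk3b, Wt1 with Osr1, and Osr1 with Gata3. This expectation comes from a gene's share of counts and is too high for a gene whose counts pile up in few pixels. A second expectation, chosen after seeing the data, was fitted to the number of pixels seen, and the same 3 pairs exceeded it. Osr1 and Gata3 shared only 2 pixels in replicate 1 (1.59, fitted 1.17 expected) and 6 in replicate 2 (3.98, fitted 2.88 expected). At E12 they shared 15 where 33.3 (fitted 19.0) were expected. How many pairs would exceed an expectation in both sections if all were laid out independently was not tested, so the number of pairs is only a description. With 2 × 2 pixels summed, 2 pairs exceeded the first expectation, Wt1 with Tcf21 and Upk3b with Tcf21, so which pairs stand out depends on the scale.

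Wt1 and Upk3b exceeded both expectations in the 2 E11 25 µm sections and at E12. In E11 25 µm replicate 1 they shared 10 pixels where 4.83 (fitted, 3.65) were expected, and in replicate 2 they shared 18 where 12.6 (8.03) were expected. At E12 they shared 28 pixels where 23.3 (15.1) were expected, which was 33.7% of Upk3b pixels and 13.5% of Wt1 pixels. In E11 10 µm replicate 2, the section richest in both, they shared 19 pixels where 20.03 (15.3) were expected, so there the excess depends on the expectation. The maps show Wt1 pixels in runs and bands: 29, 91 and 133 neighbouring pairs of Wt1 pixels were seen in the 2 E11 25 µm sections and at E12, where 15.9, 62.4 and 97.1 were expected. In E11 10 µm replicate 2, 75 such pairs were seen where 82.0 (fitted, 66.4) were expected, so there this excess also depends on the expectation.

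**Figure D2:**
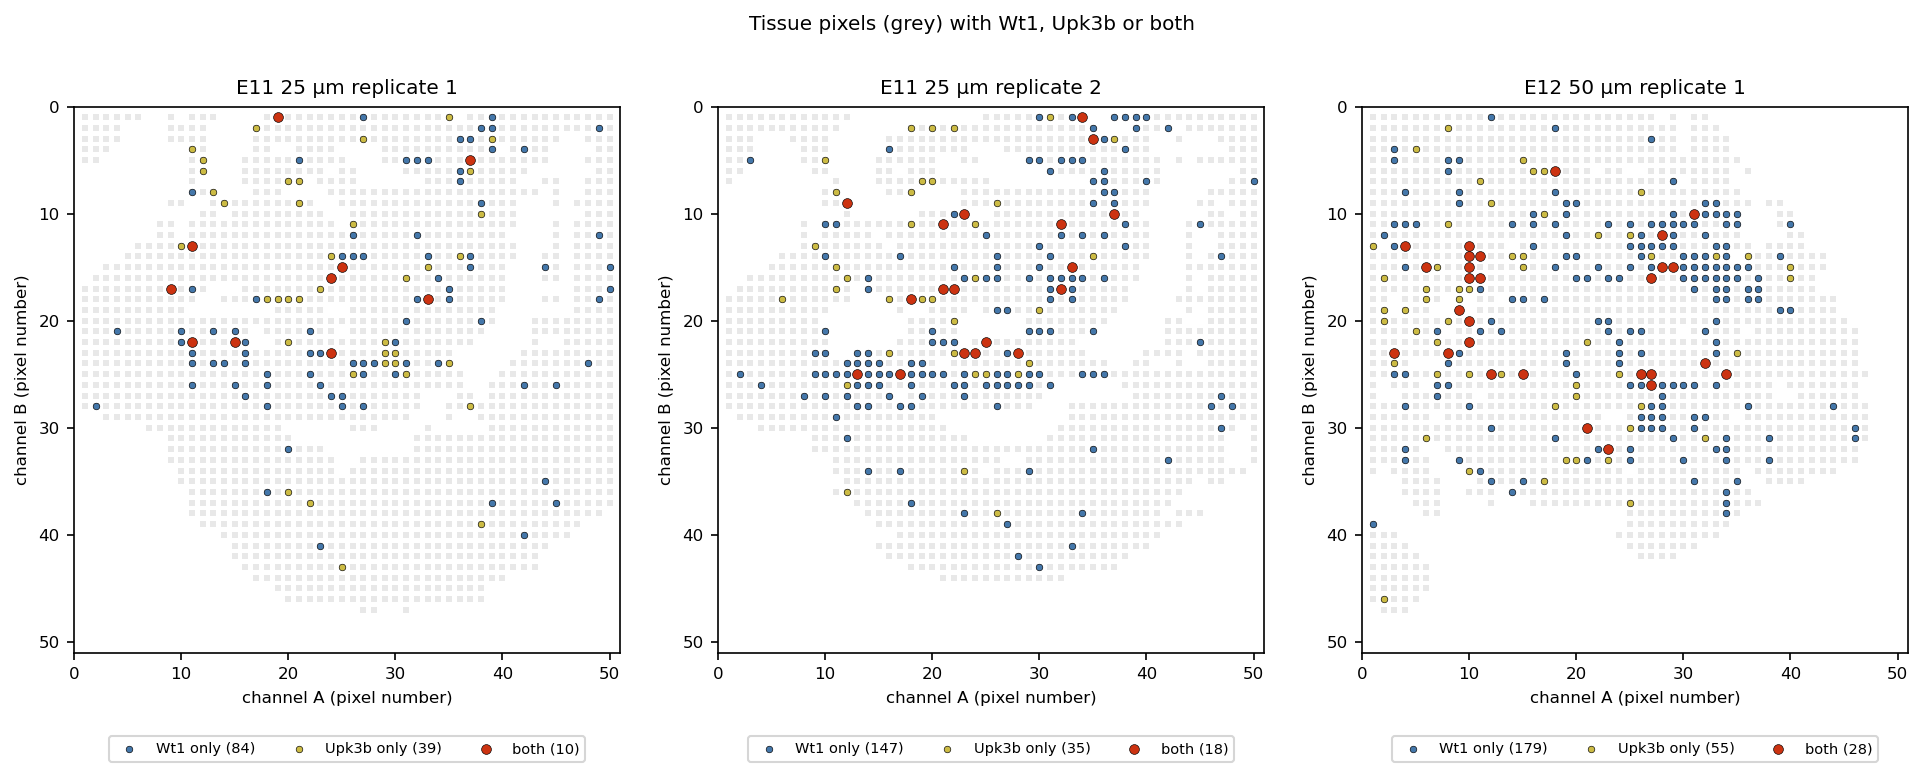
Positions of tissue pixels (grey) in 3 sections, with axes giving the pixel number along each set of channels; blue, Wt1 alone; yellow, Upk3b alone; red, both. The 2 E11 25 µm sections have a like outline and like bands of Wt1 pixels, and both genes met in 10, 18 and 28 pixels.

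Wt1 shared fewer pixels than expected with some of the other genes. At E12, Wt1 and Osr1 shared 40 pixels where 71.4 (fitted, 47.2) were expected, although they shared 4 and 14 at E11 25 µm where 3.57 (2.61) and 11.6 (8.48) were expected. Wt1 and Ret shared 1, 1 and 5 pixels in the 2 E11 25 µm sections and at E12, where 2.69 (1.57), 8.01 (5.77) and 7.87 (6.02) were expected. Wt1 with Gata3 exceeded its expectation in E11 25 µm replicate 2 (17 pixels, 12.1 and fitted 8.33 expected), but not in replicate 1 (3 pixels, 3.81 and fitted 3.13 expected) or at E12 (11 pixels, 25.6 and fitted 14.9 expected). Wt1 met Tcf21 in 13 pixels of E11 25 µm replicate 2 (9.39, fitted 7.43 expected) and in 16 pixels at E12 (12.7, fitted 9.29 expected), but in 0 pixels of replicate 1, where 1.32 (1.19) were expected.

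What else these pixels held was measured as the CPM of each gene in the pixels holding one of the 8 genes divided by its CPM in the other tissue pixels, with exact 95% intervals of the ratio that cover counting error only. The genes named from here on for such ratios were chosen after their values were seen, from lists of markers of the tissues a trunk or head section can hold.

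Wt1 pixels at E11 25 µm were enriched for genes of the mesothelium and epicardium list, 1.8 times in replicate 1 and 2.1 times in replicate 2. Bnc1, a zinc finger factor of mesothelium, was 7.4 times as high in Wt1 pixels of replicate 1 (interval 2.3 to 20.1, from 6 counts). In replicate 2 the mesothelial gene Lrrn4 was 5.3 times (2.2 to 12.0), Emx2 of the urogenital epithelium 5.5 times (2.2 to 13.2), the gonad and heart factor Gata4 3.8 times (2.3 to 6.2), and the retinoic acid synthesis gene Aldh1a2 3.2 times (2.2 to 4.5) as high. The genes most like Wt1 over both sections, after summing 3 × 3 windows of pixels, were Nr2f2 (mean Pearson r = 0.44), Myrf (0.42), Crispld2 (0.39), Nfib (0.38) and Adamts9 (0.38) among 6630 genes with at least 100 counts in each; at E12 their r was 0.37, 0.27, 0.09, 0.19 and 0.29. These correlations are over 1704 and 1504 overlapping windows that share depth, and are descriptions. Wt1 itself had 109 and 220 counts there, but the other genes given such correlations below had fewer than 100 in each section. These were 60 and 72 for Upk3b, 16 and 53 for Tcf21, 44 and 66 for Osr1, 33 and 45 for Ret, and 47 and 69 for Gata3.

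At E12 the Wt1 pixels carried gonad and kidney genes. Amhr2, the receptor for anti-Müllerian hormone in gonad and Müllerian duct mesenchyme, was 6.6 times (2.9 to 15.3) as high as in other pixels, Dppa3 6.7 times (3.7 to 12.5) and the germ cell RNA-binding gene Dazl 5.6 times (2.6 to 12.1). Six2, a factor of nephron progenitors, was 3.6 times (1.7 to 7.2), its partner Eya1 2.3 times (1.5 to 3.4), and Gdnf, the ligand of Ret from that mesenchyme, 3.6 times (1.5 to 8.3) as high. Heart muscle genes were not enriched (0.6, 0.7 and 0.9 times in the E11 25 µm sections and E12). In the E10 50 µm sections the 24 to 33 Wt1 pixels differed in this, with heart muscle genes at 2.0, 2.7 and 3.0 times the level of other pixels.

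Nr5a1 at E12 was partly gathered at 1 small site. Of its 15 pixels, 7 held Dazl or Dppa3, and these 7 lay within columns 27 to 29 and rows 11 to 14 of the grid. Neighbouring Nr5a1 pixels occurred 7 times where 0.351 pairs were expected, which is below the minimum expectation of 1 set for the counts of pairs. The 7 pixels with Dazl or Dppa3 were deep, with a median total of 7313 counts against 3560 over all tissue pixels. In Nr5a1 pixels Dazl was 118 times as high as elsewhere (54.6 to 267, 19 counts in 6 pixels against 12 elsewhere), and Dppa3 63.3 times (34.2 to 116, from 22 counts). Ddx4, the germ cell helicase, was 18.7 times (4.5 to 57.9) and Amhr2 13 times (3.3 to 38.1) as high, both from 4 counts. Wt1 shared 6 of the 15 pixels (3.32, fitted 2.74 expected), and the neuron list was at 0.1 times the level of other pixels.

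Upk3b pixels held more of both mesothelial and heart genes than other pixels. The mesothelium and epicardium list was 3.4, 3.2 and 2.4 times as high in Upk3b pixels of the 2 E11 25 µm sections and of E12. Lrrn4 was 14.0 times (4.5 to 37.6) and 11.8 times (4.5 to 28.3) as high at E11 25 µm, and the uroplakin gene Upk1b 14.7 times (4.1 to 51.1) at E12 and 29.0 times (5.6 to 187) in E11 10 µm replicate 2. The gut and lung mesenchyme list was 3.6, 2.1 and 1.3 times as high there. Heart muscle genes were 2.5, 2.9 and 3.1 times as high in the same 3 sections, and 3.5, 5.5 and 3.0 times as high in the 3 E10 50 µm sections. At E12 the atrial genes Myl7 (6.5 times, 5.8 to 7.2) and Myh6 (6.0 times, 5.3 to 6.9) had the higher ratios, while the ventricular Myh7 was 2.8 times (2.1 to 3.7) as high. Genes most like Upk3b at E11 25 µm were Rbpms (r = 0.33), Flnc (0.32), Myl7 (0.32), Myh7 (0.31) and Ttn (0.31), 4 of which are muscle genes.

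Tcf21 pixels were most numerous in E11 25 µm replicate 2 (49 pixels) and at E12 (51 pixels), while replicate 1 held 16. In replicate 2, Bnc1 was 8.4 times (3.7 to 17.6), Hand2 4.7 times (2.6 to 7.9), the epicardial factor Tbx18 4.0 times (2.2 to 6.7) and the kidney and lung integrin Itga8 4.0 times (2.5 to 6.2) as high, and the liver genes Afp (2.8 times) and Apoa2 (2.5 times) were higher as well. The same genes had lower ratios at E12, where Tbx18 was below its level in other pixels: Tbx18 was 0.38 times (0.10 to 0.996), Hand2 0.88 times (0.18 to 2.7), Bnc1 2.5 times (0.49 to 8.4), Itga8 1.8 times (1.2 to 2.5), Afp 0.96 times and Apoa2 1.1 times as high. Tcf21 pixels at E12 held more Foxf1 (3.5 times, 1.9 to 5.9), the mesothelial Muc16 (6.5 times, 1.8 to 18.8) and Krt19 (4.6 times, 1.8 to 10.1). Sections with fewer Tcf21 pixels differed in part. In E11 25 µm replicate 1, Bnc1, Hand2, Tbx18 and Itga8 had too few counts for a ratio. Afp was 1.7 times (1.2 to 2.2) as high there, the same direction as in replicate 2. In the 21 Tcf21 pixels of E11 10 µm replicate 2, Afp was 0.55 times (0.42 to 0.72) and Itga8 2.7 times (0.55 to 8.2, from 3 counts) as high. The 16 of E10 50 µm replicate 1 held more of the heart muscle genes Myh7 (9.8 times, 7.9 to 12.2) and Myl7 (9.0 times, 7.6 to 10.6). They also held more Upk3b (8.8 times, 3.6 to 19.2, from 8 counts). In E11 25 µm replicate 2, Myl7 was 1.8 times (1.5 to 2.0) and Myh7 0.83 times (0.66 to 1.03) as high. The genes most like Tcf21 at E11 25 µm were Pmp22, Runx1t1, Adamts9, Bmp4 and Lsp1, with mean r of 0.27 to 0.24, from fewer than 100 Tcf21 counts in each section.

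Osr1 pixels at E11 25 µm leaned to gut and lung mesenchyme, whose list was 1.8 and 2.6 times as high, and away from heart muscle (0.2 and 0.4 times). Isl1, expressed in splanchnic mesoderm as well as in neurons, was 3.6 times (1.5 to 7.4) and 3.5 times (2.3 to 5.1) as high, and Itga8 3.7 times (1.6 to 7.5) and 2.9 times (1.7 to 4.6). At E12 the ratio for that list was 1.6, and Bmp4 was 1.9 times (1.6 to 2.2) as high. The most like genes of Osr1 were Crispld2 (mean r = 0.36), Hmga2 (0.34), Nfib (0.34), Adamts9 (0.34) and Peg3 (0.325), of which Crispld2, Nfib and Adamts9 also stand among the 5 nearest to Wt1.

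**Figure D3:**
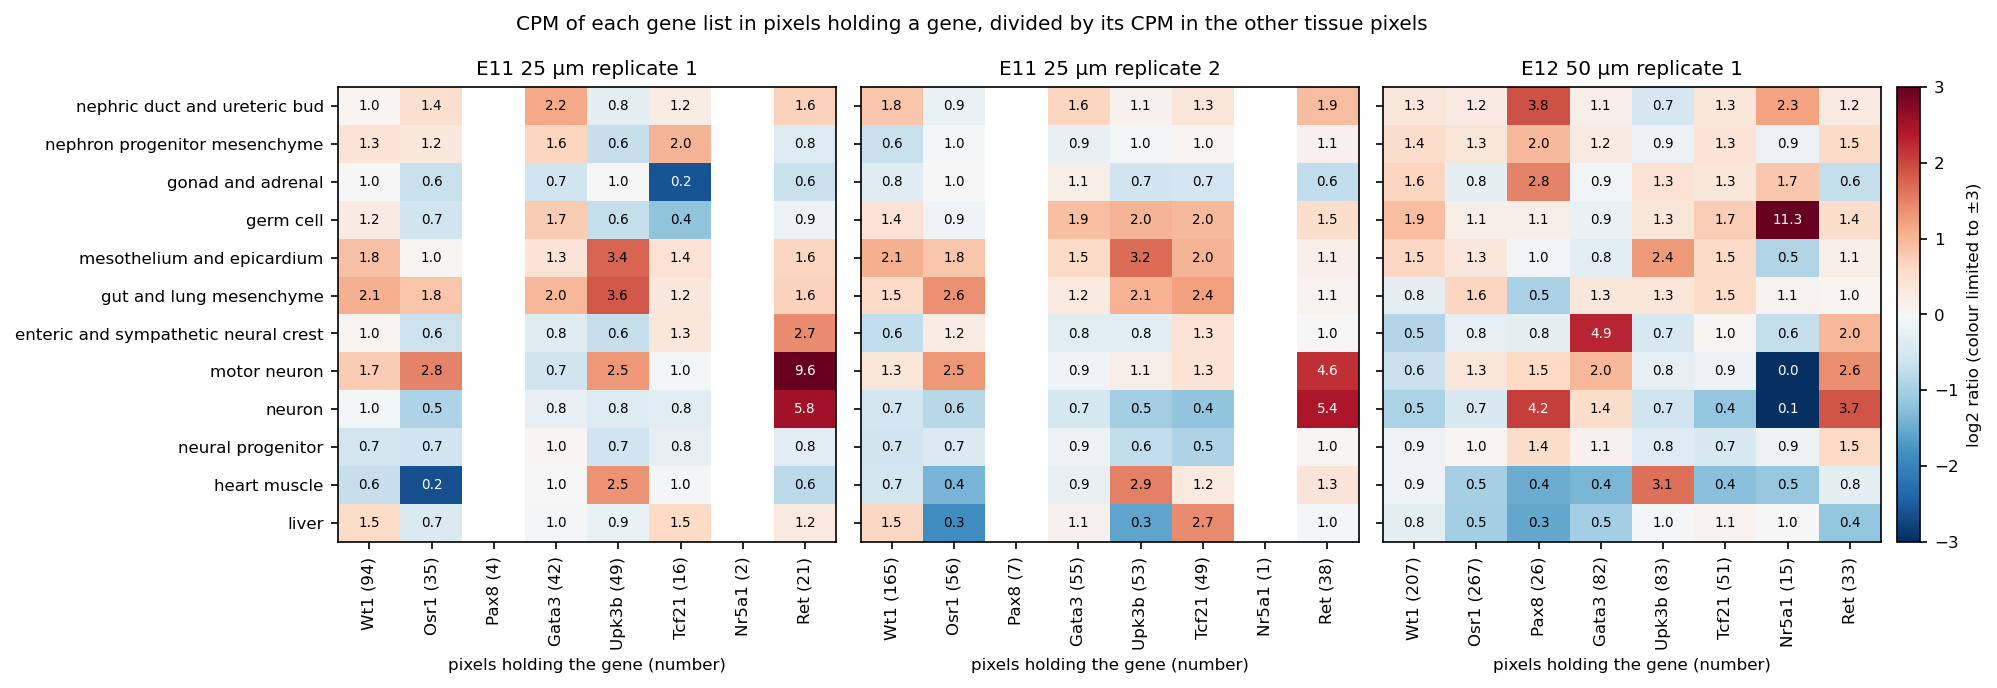
Summed CPM of 12 gene lists (rows) in pixels holding each of the 8 genes, divided by the CPM in the other tissue pixels, in 3 sections; the number of pixels is in brackets, genes with fewer than 10 pixels are blank, and colour is the log2 ratio. Upk3b is red for mesothelium (3.4, 3.2 and 2.4), Ret for neuron and motor neuron genes, and Gata3 and Nr5a1 at E12 for sympathetic (4.9) and germ cell (11.3) genes.

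Ret pixels carried neuronal genes more than urogenital ones. In them the neuron list was 5.8, 5.4 and 3.7 times as high as in other pixels of the 2 E11 25 µm sections and E12, and the motor neuron list 9.6, 4.6 and 2.6 times. The nephric duct and ureteric bud list was 1.6, 1.9 and 1.2 times as high. The motor neuron transporter Slc18a3 was 26.3 times (11.4 to 55.8) and 15.0 times (7.5 to 28.8), and Isl1 5.6 times (2.5 to 10.9) and 4.1 times (2.7 to 6.1) as high in Ret pixels at E11 25 µm. Mnx1, the motor neuron homeobox gene, was 17.7 times (5.9 to 44.1) as high in replicate 1. The catecholamine enzyme gene Th was 19.4 times (8.6 to 39.6) and 9.3 times (3.9 to 20.2) as high.

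A split by the 25% of tissue pixels richest in neuron and neural progenitor genes (the neural-rich pixels) was added after seeing the data. The neural-rich pixels held 9 of 21 Ret pixels in replicate 1, 21 of 38 in replicate 2 and 14 of 33 at E12. All 10 and all 15 Slc18a3 counts found in Ret pixels of the 2 E11 sections lay inside them. Genes most like Ret at E11 25 µm were Mapt (mean r = 0.53), Sncg (0.51), Ina (0.50), Stmn2 (0.47) and Nefl (0.46), all neuronal, with r of 0.21 to 0.26 at E12.

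**Figure D4:**
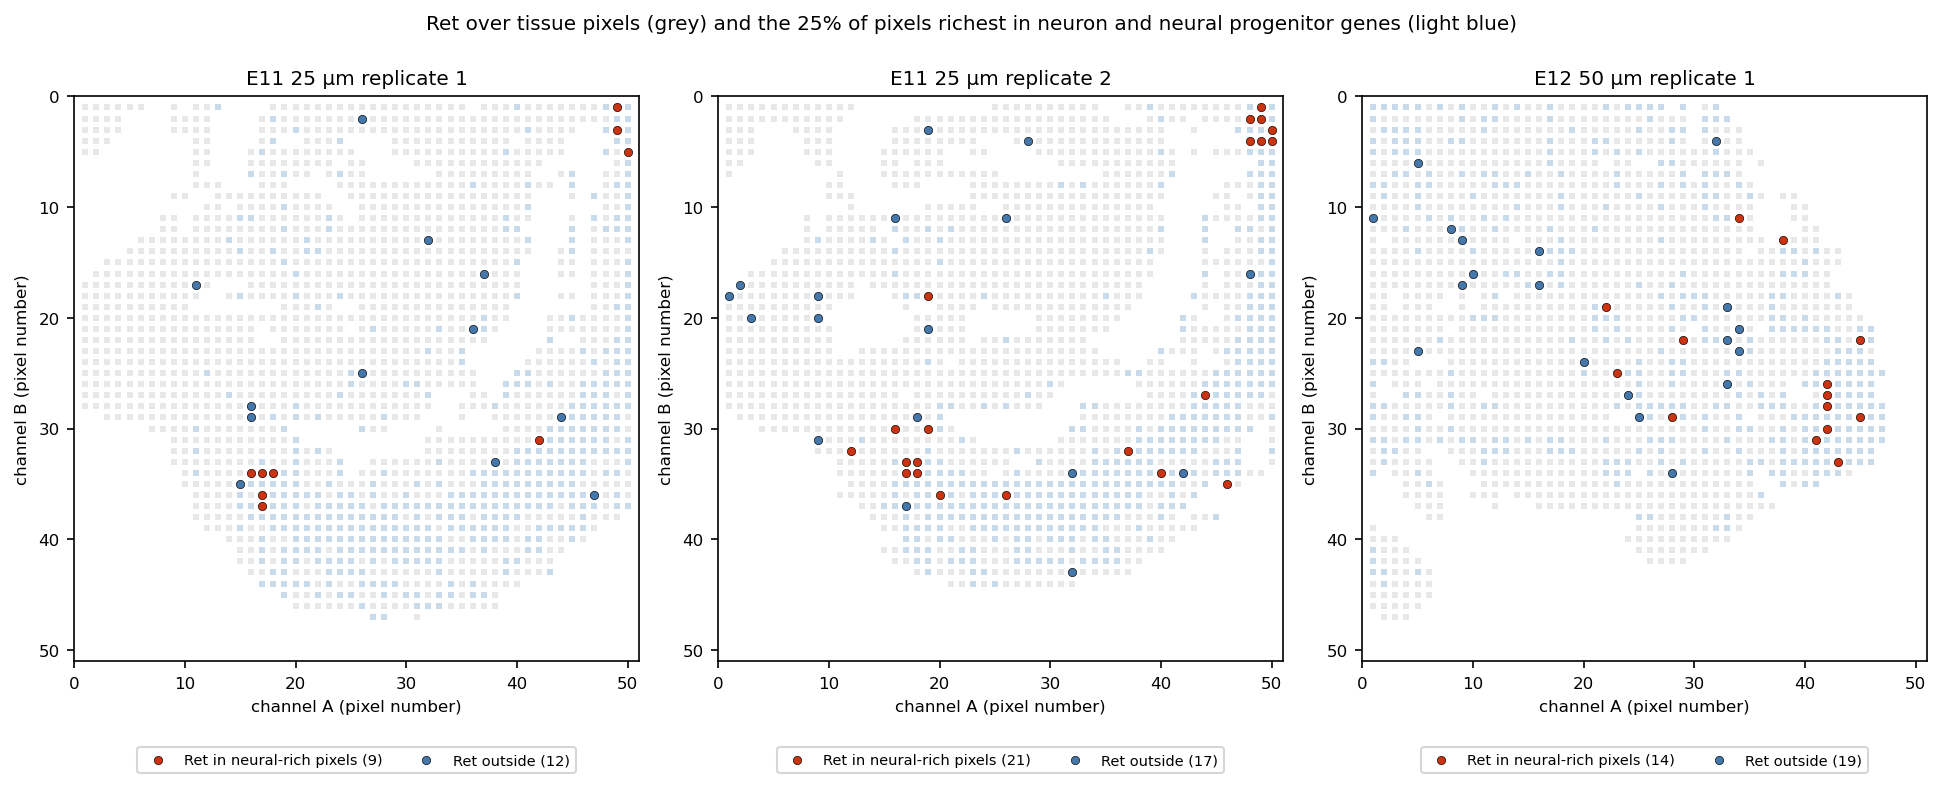
Positions of Ret pixels in 3 sections over tissue pixels (grey) and the 25% of tissue pixels richest in neuron and neural progenitor genes (light blue), with pixel numbers on both axes. Ret pixels among the latter (red) number 9, 21 and 14, and those outside (blue) 12, 17 and 19; in both E11 sections a group of red pixels sits at the left edge of the neural band.

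Pax8 pixels at E12 were described separately inside and outside the neural-rich pixels. Of the 26, the 12 inside all lay within columns 42 to 46 and rows 27 to 31. The 14 outside were spread over columns 9 to 34 and rows 12 to 33, and the 7 of them that also held Wt1 over columns 28 to 34 and rows 12 to 29. Neighbouring Pax8 pixels occurred 12 times where 1.87 pairs were expected. Inside, the interneuron factor Lhx1 reached 449 CPM (16.9 CPM over all tissue) and Sox14, a ventral interneuron factor, 69.8 CPM from 7 counts, with Wt1 at 9.97 CPM from 1 count. Outside, Lhx1 was 96.2 CPM, Sox14 had 0 counts, Wt1 reached 192 CPM (44.3 CPM over all tissue) in 7 of the 14 pixels, Wnt4 250.1 CPM (39.1 CPM over all tissue) and Emx2 57.7 CPM (15.8 CPM). Pax2, which acts with Pax8 in the nephric lineage and in interneurons, had 3 counts inside and 4 outside. None of Lhx1, Sox14, Wt1, Wnt4, Emx2 and Pax2 was used to define the neural-rich pixels. Neural genes are still likely to be higher there than over all tissue. Lhx1 and Sox14 were not measured in neural-rich pixels without Pax8, so these values cannot set Pax8 pixels apart from other neural-rich pixels.

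At E10 50 µm Pax8 was higher in the neural-rich pixels. Its level was 15.8, 9.56 and 20.1 CPM in the neural-rich pixels and 2.93, 1.64 and 5.28 CPM in the other pixels of the 3 sections. The midbrain, hindbrain and spinal factor En1 was 5.8 (3.9 to 8.5), 12.3 (4.0 to 35.8) and 2.3 times (1.6 to 3.2) as high in Pax8 pixels as elsewhere. The 12.3 rests on 7 En1 counts in 3 of 28 Pax8 pixels. Lhx1 was 2.6 (2.1 to 3.1), 4.1 (3.2 to 5.1) and 1.8 times (1.6 to 2.1) as high. At E11 25 µm Pax8 had 5 and 7 counts in 4 and 7 pixels, too few for such a description.

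The genes found with Gata3 differed between sections. At E10 50 µm its pixels were 2.5, 1.8 and 2.1 times as rich in V2b interneuron genes as other pixels, with Gata2 2.2, 3.2 and 1.9 times and Tal1 2.1, 1.2 and 2.1 times as high. The Gata3 level in the neural-rich pixels of these sections was 41.0, 9.56 and 56.6 CPM, against 19.6, 14.9 and 35.1 CPM in their other pixels. At the other pixel widths of E10 it was lower in the neural-rich pixels. It was 17.3 against 49.4 CPM and 2.93 against 15.5 CPM at 10 µm, and 9.66 against 41.8 CPM at 25 µm. At E11 25 µm the genes of the nephric duct list were 2.2 and 1.6 times as high, though from 16 and 27 counts. There Pax2 was 15.7 times (2.6 to 68.7) and 9.9 times (1.6 to 46.4) as high, from 3 counts each, the duct cadherin Cdh16 19.8 times (2.7 to 148) in replicate 2, also from 3 counts, and Wt1 2.9 times (1.9 to 4.3) in replicate 2. The genes most like it were Crispld2, Phldb2, Wbp5, Gata6 and Bmp4, with mean r of 0.26 to 0.23.

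At E12 Gata3 pixels were rich in noradrenergic genes. The norepinephrine synthesis gene Dbh was 18.4 times (13.6 to 25.0), Th 19.7 times (12.5 to 31.2), and the autonomic neuron factor Phox2a 18.9 times (6.9 to 54.2) as high in Gata3 pixels as elsewhere. Of 82 Gata3 pixels 21 held Dbh or Th, and 15 of these lay within columns 27 to 34 and rows 17 to 25. Those 15 pixels held 41 of the 123 Gata3 counts. The 61 Gata3 pixels without Dbh or Th, with 75 counts, were scattered over the section. In E11 10 µm replicate 2 Dbh was 16.3 times (7.2 to 33.9) as high in the 28 Gata3 pixels.

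**Figure D5:**
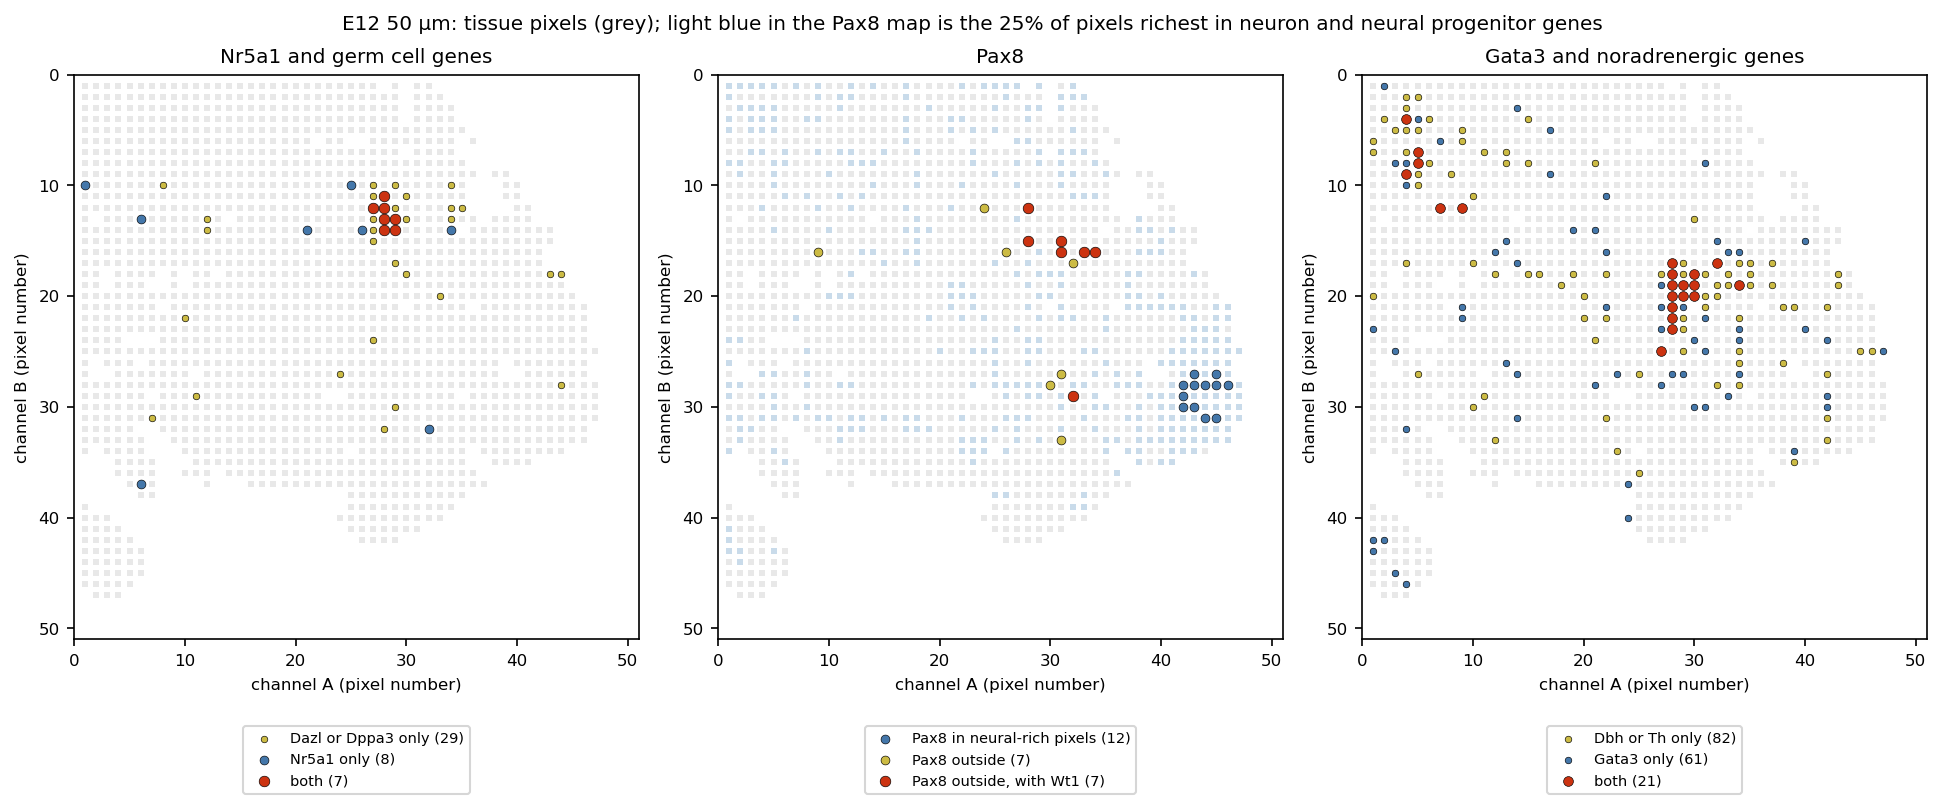
Positions in the E12 section (pixel numbers on both axes, tissue in grey) of Nr5a1 with the germ cell genes Dazl and Dppa3, of Pax8 inside and outside the neural-rich pixels (light blue), and of Gata3 with the noradrenergic genes Dbh and Th. Red pixels hold both sets of genes, 7 for Nr5a1 and 21 for Gata3, and for Pax8 they are the 7 pixels outside the neural-rich pixels that also hold Wt1.

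Deeper pixels are more likely to hold any gene, and pixels of these genes were often deeper than others. The median total was 5116 counts in the 15 Nr5a1 pixels at E12, against 3560 over all tissue pixels of that section. It was 6566 in the 38 Ret pixels of E11 25 µm replicate 2, against 4294 in the other pixels of that section. CPM ratios divide by depth, and the part of depth in the pair counts beyond the expectation was not tested. Set against the name of the list, the pixels of Wt1, Upk3b, Nr5a1 (at E12) and the Pax8 pixels outside the neural-rich pixels at E12 carried mesothelial, gonadal, germ cell or kidney genes. Upk3b pixels, and Wt1 pixels at E10 50 µm, were rich in heart muscle genes as well. Ret pixels and the Pax8 pixels of E10 50 µm carried neuronal genes. All Gata3 pixels of E12 together were 4.9 times as rich in the enteric and sympathetic list as other pixels, although 61 of the 82 held neither Dbh nor Th, and in the 2 E11 25 µm sections that ratio was 0.78 and 0.79.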

How the data were processed

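The files are pixel by gene tables of whole-number counts, which the authors deposited as raw values per pixel, with no normalization in them. CASAVA 1.8.2 and the build GRCh38 are listed per the submitters' processing notes; GRCh38 is a human build although the samples are mouse, and the aligner, annotation, strand use and treatment of molecular identifiers are not given in the sources used here. Of 15 samples, 11 transcript libraries were analysed and 4 antibody libraries were not used here. Pixels counted as tissue when their total reached 0.1 times that at the 95th percentile of the library, which kept 829 to 2271 pixels, 1563489 to 11998765 counts a library and a median of 843.5 to 11332 counts a pixel. Intervals are exact at 95% and cover counting error only.

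Counts were summed by library and tested with edgeR 4.0.16 (R 4.3.3; TMM scaling, filterByExpr, robust quasi-likelihood fit of 6 group means, 5 residual degrees of freedom, Benjamini-Hochberg at 0.05). The common dispersion was 0.101, a variation of 31.8% between libraries of a group. DESeq2 1.42.0, RLE size factors, no filter on low counts, all pixels, a tissue threshold of 0.2, leaving out each library, a replicate block and other expectations for shared pixels were alternatives. Pixel counts were made with Python 3.11.15, NumPy 2.4.6, SciPy 1.17.1 and pandas 2.3.3, and the scripts were tested on simulated data. Groups came from the labels. The 8 genes and the 19 gene lists were chosen with earlier results of these data known. Named genes were the 8, list genes called over all genes, and for each of the 8 the 5 genes of highest mean correlation over 3 × 3 windows (log2 of counts per 10000 plus 1, at least 100 counts in each E11 25 µm section); genes named for their level in pixels of the 8 fall outside this rule.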

Additional observations from a re-analysis of the deposited data

How the results depend on the processing

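Osr1 was called from E10 to E12 at 50 µm under every alternative run. The number of the 8 genes called in that comparison was 2 with no filter on low counts and ranged from 1 to 3 when single libraries were left out. From E10 25 µm to E11 25 µm it was 1 with no filter. From E10 10 µm to E11 10 µm it was 1 with no filter, 1 with DESeq2 and 0 to 2 without single libraries, and the log2 fold change of Wt1 was -0.14 without E11 10 µm replicate 2. Between 10 µm and 50 µm at E10 it was 1 with no filter, 1 with DESeq2 and 0 to 1 without single libraries. Over all genes, the calls in these 4 comparisons, in the same order, were 390, 83, 608 and 20 as reported, 1328, 671, 1835 and 731 with no filter, and 513, 377, 948 and 407 with DESeq2. Without single libraries they ranged from 98 to 969, 17 to 218, 190 to 1258 and 0 to 164. Between E11 25 µm and E11 10 µm 378 genes were called, 870 with no filter, 554 with DESeq2 and 33 to 463 without single libraries. With a replicate block for the numbers 1 and 2 of the E11 libraries, 0 of the 8 genes and 297 of all genes were called. Same-numbered libraries deviated together only weakly (r = 0.0544 over 18233 genes, which are not independent). Because the 2 E11 10 µm sections held different tissue, this r cannot decide whether the numbers pair the libraries. Pairs of genes above expectation at E11 25 µm ranged from 4 to 9 with either section alone, and genes with neighbouring pixels above expectation from 4 to 5, since 1 section then had to show the excess instead of both. Of the other values, 185 kept their direction and call, 11 gained a call, 9 moved by more than their error and 1 reversed. The cause of the other changes was not tested. Depth limits Nr5a1, Pax8 and Tcf21 most, whose pixel descriptions rest on few counts.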
